A study of Mus musculus with 8 samples.

Results

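Glycolysis is the chain of reactions that splits glucose into pyruvate, which can be turned into lactate. Transcripts of 10 of its enzymes were followed in mouse bone marrow HSPCs after IFNα. They were taken by gene symbol from the 27998 genes of the count table and are Hk1, Hk2, Gpi1, Pfkl, Aldoa, Tpi1, Pgk1, Pgam1, Pkm and Ldha. Gene positions are those of GENCODE vM21 (GRCm38) and give the whole protein-coding gene. All 10 symbols were found once, and all 10 passed the filter on low counts in all kept cells and in each of the 5 cell classes. The cells had been sorted as LK cells (lineage-negative, cKit-positive), and additional cells of an HSC surface phenotype were mixed in, so the share of HSCs was set by the sort. The mice were WT C57BL/6 animals of 12 to 14 weeks without a transgene. IFNα was given subcutaneously at 50000 IU for each 20 g of mouse weight, with collection 3, 24 or 72 h later, and 100 µl of PBS was given to the control group. Each group held 4 mice, which were labelled with hashtag antibodies and sequenced together as 1 library by droplet-based single-cell RNA sequencing. A time point and its library are therefore the same grouping and cannot be told apart. The mice are the replicates. The labels do not say whether mice of a group differed in litter or day, so p-values measure the spread between these mice.

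Hexokinases open the pathway by phosphorylating glucose, which keeps it in the cell. Gpi1, phosphofructokinase (Pfkl), aldolase (Aldoa) and triosephosphate isomerase (Tpi1) rearrange and split the sugar, Pgk1, Pgam1 and Pkm act in the later steps that return ATP and end at pyruvate, and Ldha converts pyruvate to lactate. In bone marrow, quiescent HSCs are known to rely on glycolysis, and dividing progenitors also use mitochondrial respiration. Hypoxia-inducible factor 1 and MYC are known regulators of many of these genes.

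The kept cells numbered 2474 in control and 1661, 3462 and 2449 at 3, 24 and 72 h, with 1102706 to 26446327 unique molecular identifiers (UMIs, counted transcript molecules) per mouse. Median UMIs per cell were 18964.5 in control and 12017 at 3 h. Control mouse 4 stood apart with 58 kept cells, where the other mice had 330 to 1240, and values whose call or order changed without it are given with and without it. Any pair of libraries shared at most 1 cell barcode. Clusters named from marker genes gave 5 classes: HSC-like, LMPP-like (lymphoid-primed multipotent progenitors), Myeloid-like, Erythroid-like and MK-like (megakaryocyte progenitors). The HSC-like cluster was led by Jchain, Ly6a, Ltb and Hlf, with the HSC markers beside immune genes. Members were left out of the clustering. A mouse entered a class with at least 10 cells, so that control mouse 4 was in Myeloid-like cells (16 cells) and in no other class. Levels are given as CPM, the UMIs per 1000000 UMIs of the tested genes after TMM scaling between mice.

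In all kept cells the 10 transcripts did not move as a group. At 3 h after IFNα Hk2 and Pgk1 had risen by 1.80 and 1.86 on the log2 scale and Hk1 by 0.59, whereas Gpi1, Aldoa, Tpi1, Pgam1 and Pkm had fallen and Pfkl and Ldha did not pass the test. The test was edgeR's quasi-likelihood test over the 16 mice, with p-values adjusted by the Benjamini-Hochberg method over 12042 genes and a limit of 0.05. So 3 members were higher and 5 lower, where 19.7% of all genes tested were higher and 19.2% lower. With the further limit of a log2 fold change beyond 1, 2 members passed, Hk2 and Pgk1, where 6.9% of all genes did. The median log2 fold change at 3 h was -0.09 over the members and -0.03 over all genes tested.

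**Figure D1:**
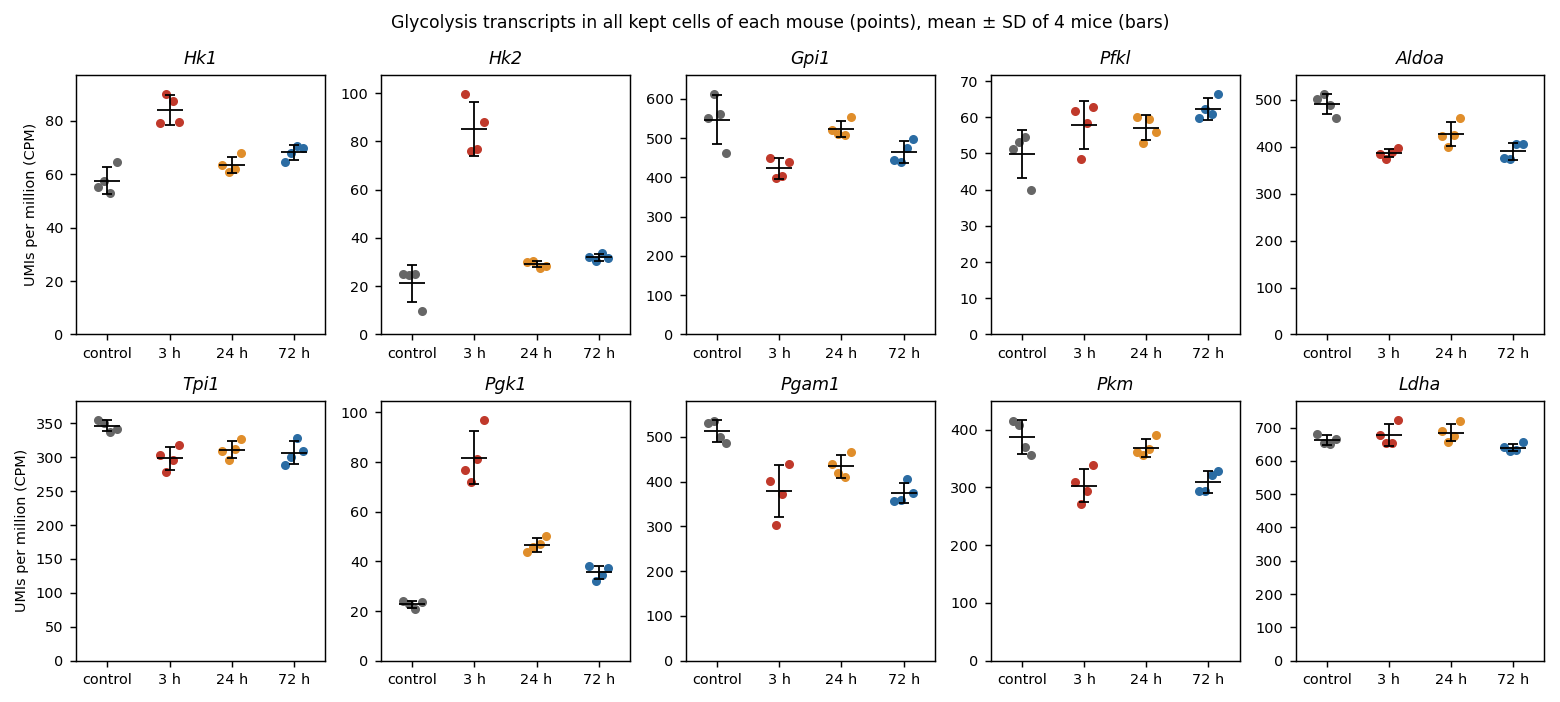
Each panel plots 1 transcript as CPM (vertical axis) in all kept cells of each mouse against the time after IFNα, with the mean and SD of 4 mice. At 3 h Hk2 and Pgk1 lie at 72.2 CPM or more in every mouse and in control at 25.2 CPM or less, whereas Ldha lies at 649 to 682 CPM in control and 652 to 722 CPM at 3 h.

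Hk2 (chr6:82725025-82774454, minus strand) encodes the inducible hexokinase that binds to mitochondria. Its level was 25.2, 24.7, 25.1 and 9.57 CPM in control mice 1 to 4 and 99.8, 76.1, 76.8 and 88.2 CPM in the mice at 3 h. The groups did not overlap, and control mouse 4, whose value rests on 11 UMIs, lay below the other controls. At 24 h the 4 mice gave 27.7 to 30.3 CPM and at 72 h 30.4 to 33.8 CPM, again with all 4 mice above every control mouse. Such a placement above the controls held for 16.2%, 12.7% and 15.2% of all genes at 3, 24 and 72 h. The log2 fold change against control was 1.80 ± 0.10 (SE, adjusted p = 4.34e-13) at 3 h, 0.26 ± 0.09 (adjusted p = 0.0436) at 24 h and 0.40 ± 0.10 (adjusted p = 0.00301) at 72 h. Between 3 and 24 h Hk2 fell by 1.54 (adjusted p = 2.84e-12). Without control mouse 4 the values were 1.76, 0.22 and 0.35, all past the test. The 24 h call was lost when any 1 of 9 other mice was left out, with values of 0.24 to 0.28.

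Pgk1 (chrX:106187100-106203699, plus strand) encodes phosphoglycerate kinase, which forms ATP. Its level was 23.9, 22.9, 20.7 and 23.5 CPM in control mice 1 to 4 and 76.8, 72.2, 81.3 and 96.9 CPM at 3 h. It was 43.9 to 50.3 CPM at 24 h and 32.1 to 38.1 CPM at 72 h. None of the 4 groups overlapped another, and the share of all genes with this pattern is not given. All 4 mice lay above every control mouse at 3, 24 and 72 h, which held for 16.2%, 12.7% and 15.2% of all genes. The log2 fold change against control was 1.86 ± 0.08 (adjusted p = 1.65e-14) at 3 h, 1.05 ± 0.08 (adjusted p = 1.20e-09) at 24 h and 0.66 ± 0.08 (adjusted p = 2.62e-06) at 72 h. At 24 h Pgk1 was the 1 member past a log2 fold change of 1, where 2.22% of all genes were. It fell by 0.81 between 3 and 24 h and by 0.39 between 24 and 72 h (adjusted p = 9.73e-09 and 0.00135). The reference annotation names 3 pseudogenes after Pgk1, of which 1, Pgk1-rs7, is in the count table. The assignment of reads to near-identical copies is therefore uncertain for Pgk1. It is also uncertain for Aldoa, Pgam1 and Ldha, which have 2 such pseudogenes each, none of them in the count table. Only pseudogenes named after a member were sought.

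The bases before the start sites of Hk2 and Pgk1, which rose most at 3 h, are shown with those of Pgam1. Pgam1 fell most in the sums over all kept cells, whereas with the 5 classes in equal weights Gpi1, Pkm and Aldoa fell more. All 10 members matched the RefSeq promoter table (GRCm38.p6), whose windows of 300 bases run from 250 before to 50 after a start site. The 250 bases before the start are printed 5′ to 3′ on the strand of the gene. Capitals mark ACGTG or GCGTG on either strand, the core letters of the hypoxia response element, so that CACGT and CACGC are those letters on the other strand.
Hk2, chr6:82774455-82774704, minus strand: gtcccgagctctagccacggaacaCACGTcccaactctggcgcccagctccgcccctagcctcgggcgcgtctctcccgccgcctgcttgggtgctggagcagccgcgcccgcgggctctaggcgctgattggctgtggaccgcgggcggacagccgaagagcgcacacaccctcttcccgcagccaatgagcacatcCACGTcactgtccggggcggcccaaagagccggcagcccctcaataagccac
Pgk1, chrX:106186850-106187099, plus strand: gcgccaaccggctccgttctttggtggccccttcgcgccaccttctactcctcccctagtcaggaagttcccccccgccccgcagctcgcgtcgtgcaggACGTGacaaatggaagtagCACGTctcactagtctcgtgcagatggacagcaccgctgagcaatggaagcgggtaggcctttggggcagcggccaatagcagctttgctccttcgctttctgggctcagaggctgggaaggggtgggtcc
Pgam1, chr19:41911621-41911870, plus strand: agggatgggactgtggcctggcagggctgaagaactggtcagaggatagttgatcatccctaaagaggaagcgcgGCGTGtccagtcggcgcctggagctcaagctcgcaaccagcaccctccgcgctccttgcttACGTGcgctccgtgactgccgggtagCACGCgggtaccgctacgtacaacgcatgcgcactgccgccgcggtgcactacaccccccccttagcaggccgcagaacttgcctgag
Over both strands and all start sites of a gene, ACGTG was found for 7 of 10 members (Hk1, Hk2, Aldoa, Pgk1, Pgam1, Pkm and Ldha) and in 19.6% of the 32817 windows of all genes. The Hk2 window held it at positions -226 and -52 from the start site, the Pgk1 window at -150 and -131 and the Pgam1 window at -114. Of the members that rose at 3 h, Hk1, Hk2 and Pgk1 all held ACGTG. Of those that fell, Aldoa, Pgam1 and Pkm held it, and Gpi1 and Tpi1 did not. GCGTG was found for 4 members (Hk1, Pfkl, Pgam1 and Ldha) and in 32.4% of all windows. The E-box CACGTG, which contains ACGTG, was found for Ldha alone among the members and in 7.15% of all windows. A motif of interferon-stimulated genes, GAAA followed after any 2 bases by GAAA, was in 3.43% of all windows and in none of the members' windows. Members with several start sites had several chances to match, and the matches describe letters only.

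Hk1 (chr10:62268855-62379908, minus strand) encodes the hexokinase found in most tissues. It had 53.0 to 64.4 CPM in control mice and 79.0 to 90.0 CPM at 3 h, with no overlap, where 16.2% of all genes lay wholly above the controls. The log2 fold change was 0.59 ± 0.06 (adjusted p = 2.62e-08) at 3 h, 0.19 ± 0.05 (adjusted p = 0.0133) at 24 h and 0.29 ± 0.06 (adjusted p = 3.85e-04) at 72 h. At 24 h 1 of 4 mice lay above every control mouse, and the call was lost without control mouse 3 or without mouse 4 at 24 h (adjusted p = 0.0797 and 0.0509). Hk3, a hexokinase of myeloid cells that is no member, fell from 65.5 ± 4.96 CPM in control to 39.6 ± 1.71 CPM at 3 h (SD, n = 4), by 0.72 on the log2 scale (adjusted p = 4.26e-07). At 24 and 72 h it had 47.4 ± 4.42 and 39.8 ± 4.59 CPM.

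In all kept cells the makeup of the hexokinase transcripts differed between the groups. Hk2 made up 14.6 ± 5.23% (SD, n = 4) of the UMIs of Hk1, Hk2 and Hk3 in control and 40.7 ± 3.85% at 3 h. It was 20.8 ± 0.984% at 24 h and 22.9 ± 0.680% at 72 h. All 4 mice of each treated group lay above every control mouse, whose shares were 6.88 to 18.3%. The share of Hk3 was 45.4 ± 1.71% in control and 19.0 ± 0.524% at 3 h. In two-sided exact permutation tests of the Hk2 share, p was 0.0286 at each of the 3 times before and after adjustment over them, the smallest value that 4 against 4 mice allow. Without control mouse 4 the control share of Hk2 was 17.2%, and the exact p of 0.0571 is the smallest for 4 against 3 mice. The part of cell composition in these shares was not tested. Within classes the mean Hk2 share at 3 h was above control in all 5. In HSC-like cells it was 27.4% in control and 19.8% and 22.8% at 24 and 72 h. The same means were 18.4%, 19.0% and 21.3% in MK-like cells and 15.3%, 23.8% and 27.0% in Myeloid-like cells.

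**Figure D2:**
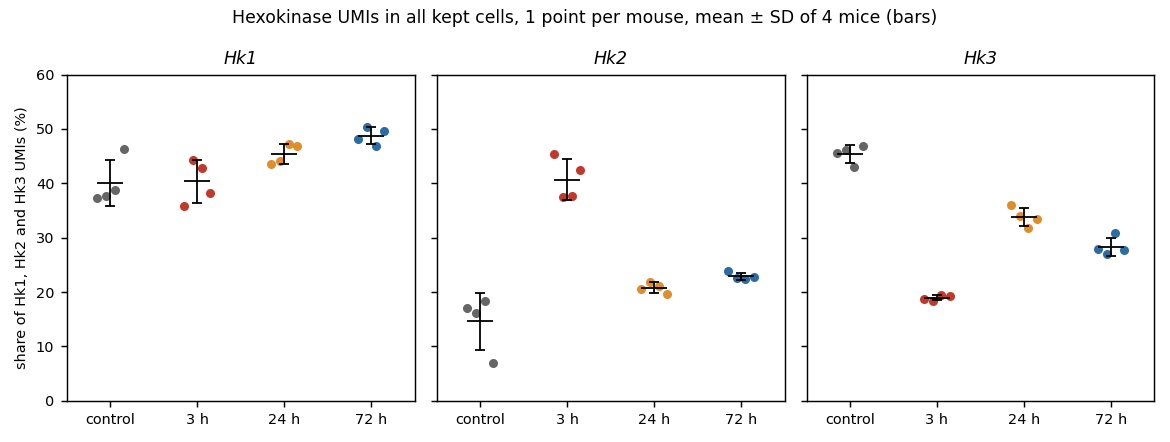
The share of Hk1, Hk2 and Hk3 in the summed UMIs of these 3 hexokinases (percent, vertical axis) is plotted for each mouse against the time after IFNα, with the mean and SD of 4 mice. The Hk2 share is 37.4 to 45.3% at 3 h and 6.88 to 18.3% in control, and the Hk3 share is 18.3 to 19.5% at 3 h and 42.9 to 46.9% in control.

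The members that fell at 3 h did so by less than 1 on the log2 scale. They are Gpi1 (chr7:34201330-34230336, minus strand), Aldoa (chr7:126795234-126800751, minus strand), Tpi1 (chr6:124810586-124814296, minus strand), Pgam1 (chr19:41911923-41918660, plus strand) and Pkm (chr9:59656368-59679375, plus strand). Pgam1, phosphoglycerate mutase, had 485 to 536 CPM in control mice and 302 to 439.9 CPM at 3 h, with a log2 fold change of -0.44 ± 0.07 (adjusted p = 4.61e-05). Gpi1, glucose phosphate isomerase, had 462 to 613 CPM in control and 398 to 450.0 CPM at 3 h (-0.39 ± 0.06, adjusted p = 1.40e-05). Pkm, a pyruvate kinase gene whose splice forms cannot be separated in these counts, had 356 to 415 CPM in control and 271 to 338 CPM at 3 h (-0.37 ± 0.06, adjusted p = 2.83e-05). In these 3 genes each mouse at 3 h lay below every control mouse. Aldoa had 462 to 512 CPM in control and 375 to 398 CPM at 3 h (-0.35 ± 0.04, adjusted p = 5.65e-07). Tpi1 had 338 to 355 CPM in control and 278 to 318 CPM at 3 h (-0.22 ± 0.04, adjusted p = 4.93e-04). Aldoa and Tpi1 did not overlap the controls either, which makes 5 members with every mouse below every control mouse, where 13.1% of all genes were so placed.

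At 24 h Aldoa (-0.21 ± 0.04), Tpi1 (-0.16 ± 0.04) and Pgam1 (-0.25 ± 0.07) passed as lower, and Gpi1 (-0.08 ± 0.06) and Pkm (-0.09 ± 0.06) did not. Without control mouse 4 Gpi1 at 24 h was -0.14 and passed as lower (adjusted p = 0.0431). With Hk1, Hk2 and Pgk1 this gave 3 members higher and 3 lower, where 14.5% of all genes were higher and 13.8% lower. From 3 to 24 h Gpi1, Aldoa, Pgam1 and Pkm rose by 0.31, 0.14, 0.19 and 0.28 on the log2 scale while Hk1, Hk2 and Pgk1 fell, where 12.3% of all genes were higher and 16.3% lower. The Pgam1 call of that contrast was lost when any 1 of 12 mice was left out, with 0.11 without mouse 2 at 3 h and 0.16 to 0.21 without 1 of the other 11. The Aldoa call was lost without mouse 4 at 24 h (0.11).

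At 72 h Pgam1 (-0.46 ± 0.07), Pkm (-0.34 ± 0.06), Aldoa (-0.34 ± 0.04), Gpi1 (-0.26 ± 0.06) and Tpi1 (-0.18 ± 0.04) all passed as lower. Hk1, Hk2, Pfkl and Pgk1 passed as higher, where 18.9% of all genes were higher and 18.5% lower. Between 24 and 72 h Pkm fell by 0.25 (adjusted p = 0.00498) and Aldoa by 0.13 (adjusted p = 0.047), beside Pgk1. In that contrast 3 members were lower and none higher (edgeR; all genes 5.38% lower and 3.7% higher), and the Aldoa call was lost when any 1 of 11 mice was left out. In the same contrast Gpi1 (-0.17, adjusted p = 0.0631), Pgam1 (-0.21, adjusted p = 0.0643) and Ldha (-0.10, adjusted p = 0.0757) did not pass, but Gpi1 passed without control mouse 2, control mouse 4 or mouse 4 at 72 h, Pgam1 without mouse 2 or 4 at 3 h or mouse 3 at 72 h, and Ldha without mouse 4 at 3 h or mouse 2 at 24 h. Those values were -0.17 to -0.21, -0.21 to -0.26 and -0.10 to -0.12.

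The remaining members were Pfkl (chr10:77986947-78010083, minus strand) and Ldha (chr7:46841475-46855627, plus strand). Pfkl, the liver type of phosphofructokinase at the committed step, had 40.02 to 54.6 CPM in control and 48.4 to 62.8 CPM at 3 h (0.15 ± 0.07, adjusted p = 0.117), and without mouse 2 at 3 h it was 0.21 and passed (adjusted p = 0.0222). At 72 h it had 59.7 to 66.5 CPM, above every control mouse, as were 15.2% of all genes (0.25 ± 0.07, adjusted p = 0.00603). Ldha had 656 to 719 CPM at 24 h and 631 to 655 CPM at 72 h. Its log2 fold changes were 0.03 ± 0.03, 0.05 ± 0.03 and -0.05 ± 0.03 at 3, 24 and 72 h, and none passed. At 3 h the sign of Ldha depended on the scaling: with library totals alone it was -0.12 and passed as lower, a scaling that moves the median of all genes from -0.03 to -0.18, with 13.2% of all genes higher and 38.5% lower.

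The cell composition moved with these values, and in sums over all kept cells fewer cells of a type cannot be told apart from less RNA per cell. Myeloid-like cells were 29.2 ± 1.77% of a mouse's kept cells in control and 16.1 ± 3.18%, 19.7 ± 1.98% and 15.4 ± 2.21% at 3, 24 and 72 h (SD, n = 4). HSC-like cells were 8.05 ± 2.95% in control and 12.0 ± 2.36%, 8.76 ± 1.16% and 10.1 ± 1.31% at these times. The unnamed cluster led by Wfdc17, Myl10, Dntt and Hlf held 9.65 ± 1.20% in control and 18.5 ± 2.29%, 14.6 ± 0.887% and 18.6 ± 1.79% later. The summed level of the 12 myeloid markers, in CPM without TMM scaling, was 13846 to 18911 in control and 7351 to 10849, 8947 to 11389.6 and 7787 to 9918 at 3, 24 and 72 h, with none of the 12 at 0. That of 15 G2/M genes was 1261 to 1470.2 CPM in control and 842 to 975 CPM at 3 h, and its part in the results was not tested. The summed level of the 8 HSC markers, Ly6a among them, was 117 to 184 CPM in control and 287 to 399 CPM at 3 h. Whether treatment changed which cells entered the HSC-like class was not tested. Putting the 5 classes in equal weights in each mouse was done with limma on log2 CPM without TMM scaling. It left out control mouse 4 and all cells outside the 5 classes. Library totals alone, also without TMM scaling, gave a median of all genes at 3 h of -0.18. Equal weights gave a median of -0.20, with 9.43% of all genes higher and 39.1% lower. The 3 h values of Gpi1 (-0.39), Aldoa (-0.35), Tpi1 (-0.30), Pgam1 (-0.34) and Pkm (-0.36) passed as lower under these weights and lay 0.19, 0.15, 0.09, 0.13 and 0.16 below that median. In the sums over all kept cells they lay 0.37, 0.33, 0.19, 0.42 and 0.34 below the median of all genes. Pfkl (-0.22) and Ldha (-0.16) also passed as lower under these weights, with Pfkl 0.02 below the median of all genes and Ldha above it. Pgk1 was 1.80, 1.10 and 0.74 at the 3 times and passed at each. Hk2 was 1.54, 0.12 and 0.29, of which the 24 h value did not pass. In this setting Hk1 (0.13), Aldoa (-0.07) and Pgam1 (-0.06) at 24 h and Hk1 (0.14), Gpi1 (-0.06) and Pfkl (0.06) at 72 h also no longer passed. The part of the weights, the test, the scaling and the left-out mouse and cells in these lost calls was not tested. These weights left 3.98% of all genes higher and 4.77% lower at 24 h, with 4.31% higher and 8.79% lower at 72 h.

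In control mice the levels differed between classes, which is given as a description. CPM was scaled within each class over its own mice and tested genes, so no scaling was shared between classes. Pgam1 had 864 ± 33.4 CPM in Myeloid-like cells (SD, n = 4) and 64.2 ± 5.66 CPM in Erythroid-like cells (n = 3), a ratio of 13.5. Pkm had 597 ± 9.07 CPM in Myeloid-like and 27.9 ± 3.91 CPM in Erythroid-like cells, a ratio of 21.4. Gpi1 (781 ± 78.3 CPM against 265 ± 24.1 CPM) and Pgk1 (27.2 ± 1.16 CPM against 14.1 ± 1.75 CPM) were also highest in Myeloid-like and lowest in Erythroid-like cells, although neighbors in the order of Pgk1 overlapped throughout. Aldoa and Tpi1 were highest in Myeloid-like cells too, with 654 ± 16.4 CPM and 383 ± 11.6 CPM, and lowest in MK-like (344 ± 50.9 CPM) and HSC-like cells (239 ± 15.5 CPM). For Aldoa the MK-like values overlapped those of LMPP-like cells.

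The order was different for the hexokinases and Ldha. Hk1 was highest in Erythroid-like cells (89.9 ± 5.28 CPM), which overlapped HSC-like cells, and lowest in Myeloid-like cells (35.2 ± 1.23 CPM). Hk2 was highest in HSC-like cells (32.5 ± 11.1 CPM), which overlapped Myeloid-like cells (28.5 ± 9.06 CPM), and these overlapped LMPP-like cells (25.9 ± 4.35 CPM). Without control mouse 4 the Myeloid-like mean was 32.97 ± 1.73 CPM (n = 3), above that of HSC-like cells and within their range. It was lowest in Erythroid-like cells (5.38 CPM, range 2.30 to 9.03). Ldha was highest in MK-like cells (911 ± 54.4 CPM), followed by Erythroid-like (834 ± 28.5 CPM), Myeloid-like (663 ± 23.7 CPM), LMPP-like (564 ± 54.5 CPM) and, at the low end, HSC-like cells (430.1 ± 50.5 CPM), and no neighbors in this order overlapped. Pfkl was highest in MK-like cells (73.4 ± 9.21 CPM), which overlapped HSC-like cells. Its 2 lowest classes, Erythroid-like (48.6 ± 3.23 CPM) and Myeloid-like cells (46.4 ± 10.9 CPM), overlapped too. Without control mouse 4 the Myeloid-like mean of Pfkl was 51.8 ± 1.66 CPM, above that of Erythroid-like cells.

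**Figure D3:**
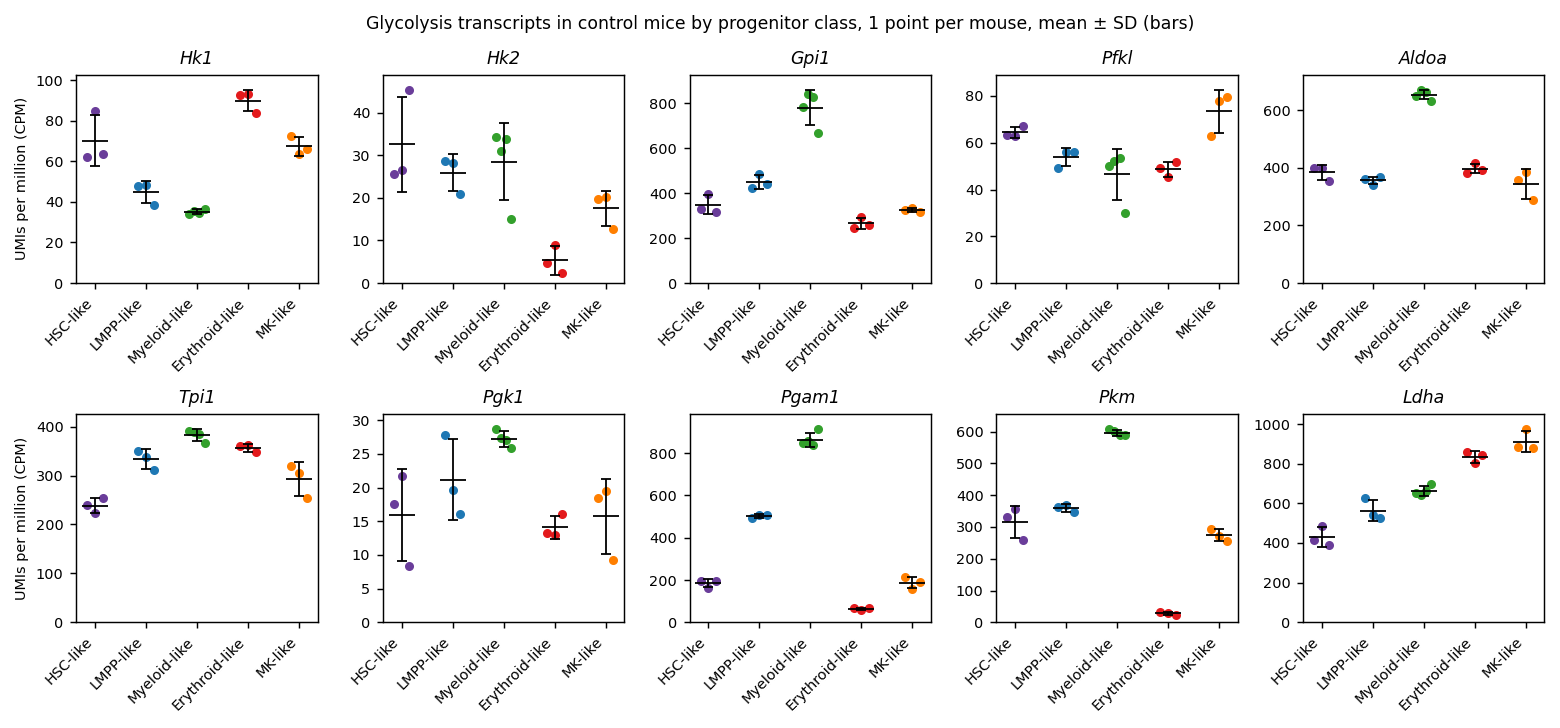
CPM of each transcript (vertical axis) in the 5 classes of control mice, 1 point per mouse with at least 10 cells, with mean and SD (4 mice for Myeloid-like, 3 for the other classes). Pgam1 and Pkm stand at 864 and 597 CPM in Myeloid-like and at 64.2 and 27.9 CPM in Erythroid-like cells.

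The rise of Hk2 and Pgk1 at 3 h was found in all 5 classes. Hk2 in HSC-like cells had 25.6 to 45.3 CPM in 3 control mice and 73.2 to 108 CPM in 4 mice at 3 h (1.44 ± 0.23, adjusted p = 4.73e-06). Pgk1 in HSC-like cells had 8.39 to 21.8 CPM in control and 59.1 to 86.1 CPM at 3 h (2.09 ± 0.30, adjusted p = 3.30e-07). These control values rest on 57 and 27 UMIs. The 3 h log2 fold changes of Hk2 in the other classes were 1.96 ± 0.14 in LMPP-like, 1.77 ± 0.09 in Myeloid-like, 2.73 ± 0.31 in Erythroid-like and 1.61 ± 0.23 in MK-like cells. Those of Pgk1 were 1.98 ± 0.17, 1.88 ± 0.08, 2.05 ± 0.19 and 2.37 ± 0.19. All these values passed, where 8.98% of genes tested were higher in HSC-like, 10.3% in LMPP-like, 13.9% in Myeloid-like, 9.69% in Erythroid-like and 8.28% in MK-like cells. For both genes all 4 mice lay above every control mouse in each class, where 11%, 12%, 12.2%, 11.4% and 10.6% of genes did. In the 3 large clusters left unnamed Hk2 gave 1.88, 2.94 and 2.52 and Pgk1 2.01, 1.83 and 2.06, and all passed (background 10.8%, 9.37% and 9.3%).

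**Figure D4:**
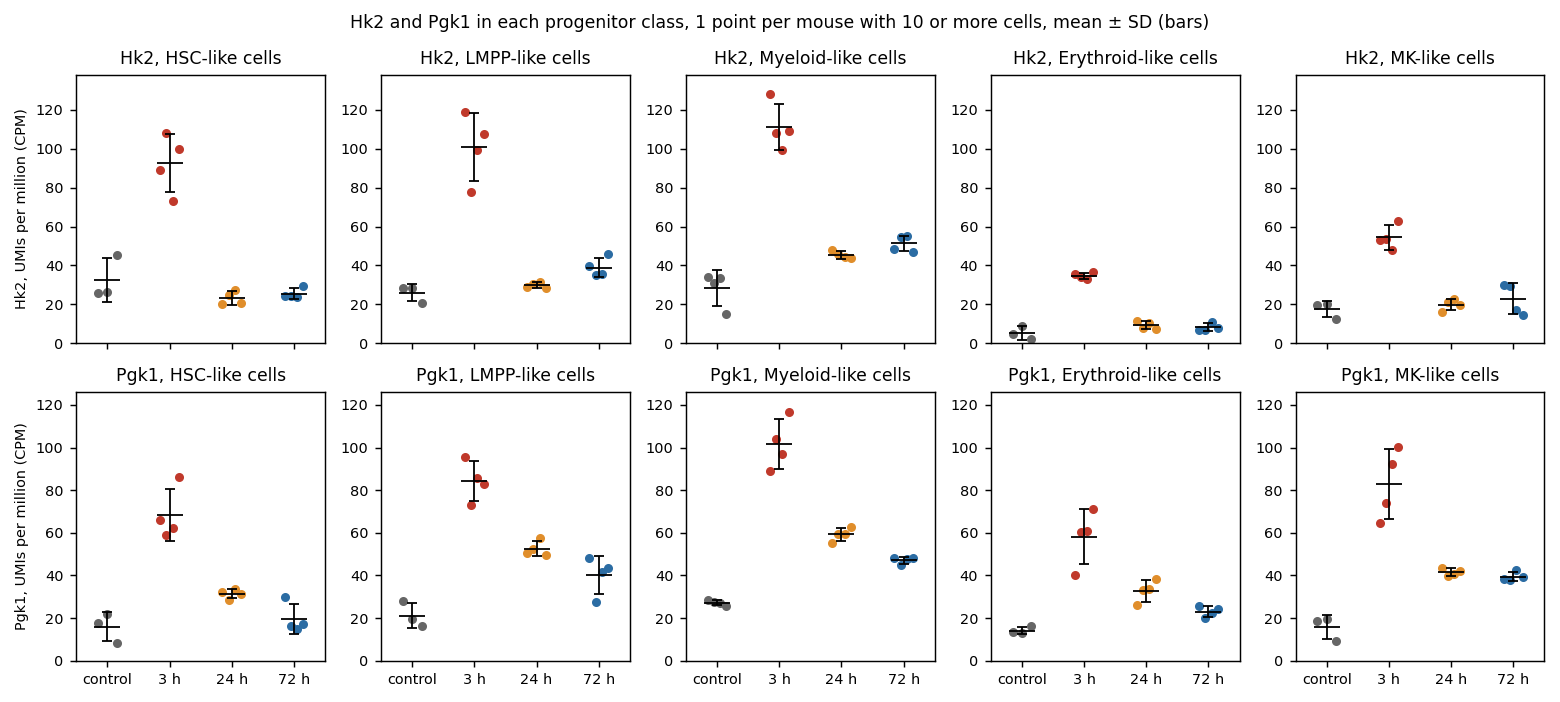
CPM of Hk2 and Pgk1 in each class (vertical axis) against the time after IFNα, 1 point per mouse with at least 10 cells, with mean and SD. At 3 h the 4 mice lie above every control mouse in all 5 classes for both genes. At 72 h Pgk1 is above every control mouse in Myeloid-like, Erythroid-like and MK-like cells, where 794 of 9734, 728 of 8526 and 691 of 8869 genes are.

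The later course differed in what passed. Pgk1 passed as higher at 24 h in LMPP-like (1.28 ± 0.15), Myeloid-like (1.11 ± 0.07), Erythroid-like (1.23 ± 0.16) and MK-like cells (1.35 ± 0.18). In HSC-like cells it had 28.4 to 33.6 CPM at 24 h, above every control mouse, as were 492 of 7675 genes. It did not pass there (1.00 ± 0.30, adjusted p = 0.056), and it passed without mouse 1 at 72 h (1.00, adjusted p = 0.0466). At 72 h Pgk1 passed in LMPP-like (0.91 ± 0.17), Myeloid-like (0.77 ± 0.09), Erythroid-like (0.70 ± 0.19) and MK-like cells (1.28 ± 0.20), and the Erythroid-like call was lost when control mouse 1 or 2 or mouse 1 or 4 at 72 h was left out (0.64 to 0.69). In HSC-like cells it had 14.8 to 29.8 CPM at 72 h (0.39 ± 0.34, adjusted p = 0.729). The unnamed cluster led by Wfdc17, Myl10, Dntt and Hlf is outside the HSC-like class. Pgk1 gave 1.21 ± 0.20 at 24 h and 0.93 ± 0.22 at 72 h there (edgeR adjusted p = 8.72e-05 and 0.00629). Genes higher at 24 h made up 2.07% in HSC-like, 3.81% in LMPP-like, 8.9% in Myeloid-like, 5.78% in Erythroid-like and 2.73% in MK-like cells, and at 72 h 1.8%, 3.34%, 8.18%, 3.42% and 2.9%.

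Hk2 passed as higher in Myeloid-like cells at 24 h (0.48 ± 0.08) and 72 h (0.66 ± 0.09) and in LMPP-like cells at 72 h (0.58 ± 0.15). The LMPP-like call was lost without control mouse 3 or without mouse 4 at 72 h (0.45 and 0.49). Erythroid-like cells gave 0.81 ± 0.31 at 24 h and 0.66 ± 0.35 at 72 h without passing (edgeR adjusted p = 0.0954 and 0.329). Without control mouse 2 both values passed (1.35 and 1.20, adjusted p = 0.00595 and 0.0446). The Erythroid-like control values rest on 7 to 21 UMIs per mouse. MK-like cells gave 0.18 ± 0.22 and 0.36 ± 0.23 without passing. In HSC-like cells Hk2 had 20.2 to 27.4 CPM at 24 h and 23.7 to 29.7 CPM at 72 h, with 3 of 4 mice below every control mouse at each time. The log2 fold changes there were -0.46 ± 0.25 and -0.35 ± 0.27 and did not pass (adjusted p = 0.531 and 0.67). The share of all genes with 3 of 4 mice below every control mouse is not given. In the unnamed cluster led by Wfdc17, Myl10, Dntt and Hlf the sign of Hk2 was the other way. It gave 0.27 ± 0.20 at 24 h and 0.57 ± 0.20 at 72 h without passing (edgeR adjusted p = 0.586 and 0.122). No mouse lay below every control mouse there.

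The difference between the response of HSC-like cells and that of another class was tested within mice with limma. None of 40 values (10 members against 4 classes) passed at 3, 24 or 72 h, and 5, 4 and 6 of 40 had an unadjusted p under 0.05, where 11.8%, 4.13% and 4.51% of the values of all genes did. The 4 comparisons share the same HSC-like sums, so 1 gene can count several times. Those under 0.05 came from Hk1, Hk2, Pgam1 and Ldha at 3 h. At 24 h they came from Hk2 and Pgk1 alone, and at 72 h from Hk2, Pgk1 and Pgam1. With adjustment 0.16% of all genes passed against LMPP-like, 1.15% against Myeloid-like, 0.327% against Erythroid-like and 0.0934% against MK-like cells at 3 h. In the same order the shares were 0.0133%, 0.0814%, 0% and 0% at 24 h and 0.0133%, 0.0136%, 0% and 0% at 72 h. For Hk2 the HSC-like response was below the Myeloid-like response by 0.29 ± 0.20 at 3 h, 0.86 ± 0.20 at 24 h and 0.90 ± 0.20 at 72 h (limma adjusted p = 0.565, 0.227 and 0.319). For Pgk1 at 3 h the differences were -0.02 ± 0.23, 0.10 ± 0.24, 0.02 ± 0.30 and -0.38 ± 0.20 against LMPP-like, Myeloid-like, Erythroid-like and MK-like cells. At 72 h the difference of Pgk1 against MK-like cells was -1.03 ± 0.20 (limma adjusted p = 0.447), and without mouse 1 at 72 h it was -1.24 and passed (adjusted p = 0.0221). The HSC-like values come from 32 to 116 cells per mouse, and a difference that did not pass does not show that the classes responded alike.

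Hk1 passed as higher at 3 h in HSC-like (0.83 ± 0.20), LMPP-like (0.66 ± 0.13) and Erythroid-like cells (0.55 ± 0.12). It gave 0.41 ± 0.14 in MK-like and 0.24 ± 0.11 in Myeloid-like cells without passing (adjusted p = 0.0526 and 0.127), and the MK-like value passed without mouse 3 at 3 h (0.46) or mouse 1 at 72 h (0.41). At 24 and 72 h Hk1 passed in none of the 5 classes by edgeR. Pfkl passed in Myeloid-like cells at 3 h (0.31 ± 0.10) and 72 h (0.35 ± 0.08), where control mouse 4 had 30.1 CPM from 14 UMIs and the other controls 50.0 to 53.3 CPM, and without that mouse the values were 0.29 and 0.33 (adjusted p = 0.0145 and 0.00237). The 3 h call was lost without mouse 3 or mouse 4 at 3 h (0.30 to 0.31).

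At 3 h 9 of the 50 pairs of member and class passed as lower. They were Pgam1 in HSC-like (-0.52 ± 0.14), LMPP-like (-0.23 ± 0.07) and Myeloid-like cells (-0.15 ± 0.04), Gpi1 in Myeloid-like (-0.25 ± 0.05) and MK-like cells (-0.27 ± 0.08), Aldoa in Myeloid-like (-0.24 ± 0.05) and MK-like cells (-0.34 ± 0.09), Pkm in Myeloid-like cells (-0.29 ± 0.05) and Tpi1 in Erythroid-like cells (-0.26 ± 0.08). Of all genes 2.8% were lower in HSC-like, 5.39% in LMPP-like, 10.9% in Myeloid-like, 4.06% in Erythroid-like and 2.24% in MK-like cells. In HSC-like cells Pgam1 had 164 to 197 CPM in control and 108 to 163 CPM at 3 h, without overlap (7.36% of genes lay wholly below the controls), and its call was lost without control mouse 1 (-0.47). Leaving out 1 mouse also ended the call of Pgam1 in LMPP-like (any of 3 mice) and Myeloid-like cells (mouse 2 at 3 h), of Gpi1 and Aldoa in MK-like cells (control mouse 2 or mouse 4 at 3 h) and of Tpi1 in Erythroid-like cells (any of 6 mice). With library totals alone 24 pairs passed as lower, a scaling that moved the median of all genes in the classes to between -0.26 and -0.17 and the share of lower genes to 12%, 14.1%, 25.5%, 18.5% and 10.9% in the same order of classes.

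At 24 h none of the 50 pairs passed as lower by edgeR, and with library totals alone 1 did. At 72 h 3 did, Aldoa (-0.22 ± 0.05) and Pkm (-0.20 ± 0.05) in Myeloid-like and Tpi1 (-0.25 ± 0.08) in Erythroid-like cells, the last of which was lost when any 1 of 10 mice was left out. The shares of all genes that were lower were 0.651%, 1.77%, 6.67%, 3.84% and 0.823% at 24 h in HSC-like, LMPP-like, Myeloid-like, Erythroid-like and MK-like cells and 0.795%, 1.36%, 7.5%, 1.64% and 1.29% at 72 h. Ldha passed as higher in Myeloid-like cells at 3 h (0.14 ± 0.05, adjusted p = 0.029) and in Erythroid-like cells at 24 h (0.18 ± 0.06, adjusted p = 0.0466). The first was -0.15 with the Myeloid-like clusters in equal weights, and the calls were lost when any 1 of 5 and 8 mice was left out. In LMPP-like cells Ldha (0.18 ± 0.07) and Pfkl (0.31 ± 0.12) at 72 h did not pass. Both passed without mouse 2 at 72 h (0.27 and 0.43, edgeR adjusted p = 0.00438 and 0.0211), and Ldha also without control mouse 1 (0.26). Ldha at 3 h (0.16 ± 0.07) passed there only without control mouse 1 (0.25) or mouse 2 at 72 h (0.17).

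**Figure D5:**
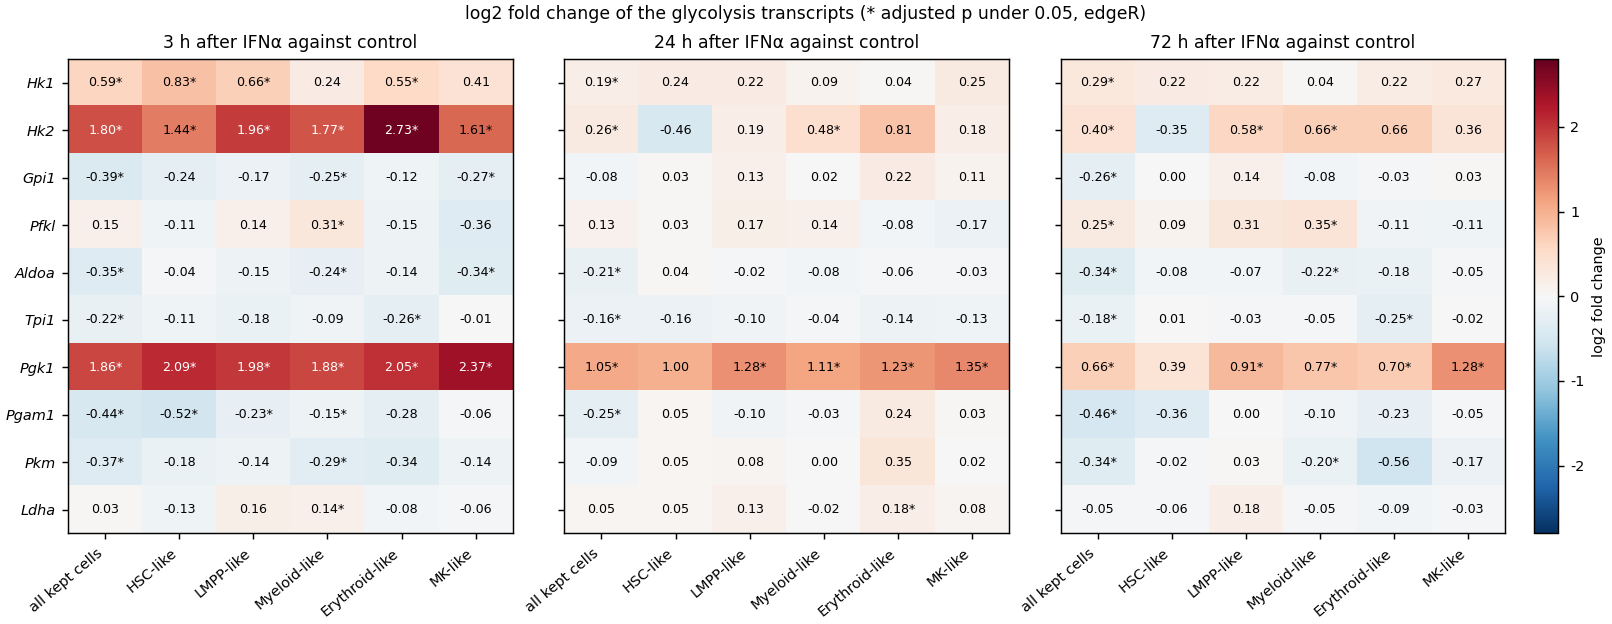
Colors and printed values give the fitted log2 fold change of each transcript (rows) against control in all kept cells and in the 5 classes (columns) at 3, 24 and 72 h, and an asterisk marks an adjusted p under 0.05 (edgeR). Hk2 and Pgk1 carry an asterisk in all 6 columns at 3 h, with values from 1.44 to 2.73, and HSC-like cells carry none at 24 or 72 h.

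The steps of Gapdh and enolase are not among the 10 members. Gapdh, which acts just before Pgk1, had 2159.8 ± 103 CPM in control and 1742 ± 159 CPM at 3 h (-0.31 ± 0.05, adjusted p = 3.01e-05). It gave -0.10 ± 0.05 at 24 h (adjusted p = 0.162) and -0.44 ± 0.05 at 72 h (adjusted p = 7.34e-07). Eno1, the enolase between Pgam1 and Pkm, rose from 147 ± 7.61 CPM by 0.45 ± 0.07 at 3 h (adjusted p = 9.23e-06). It gave 0.04 ± 0.06 at 24 h (adjusted p = 0.697) and 0.24 ± 0.06 at 72 h (adjusted p = 0.0048).

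Of a wider list of glycolysis-related genes 61 were tested in all kept cells, and 13 were higher and 23 lower at 3 h, 6 and 19 at 24 h and 9 and 18 at 72 h. As shares these are 21.3% and 37.7%, 9.84% and 31.1%, and 14.8% and 29.5%, where 19.7%, 14.5% and 18.9% of all genes were higher and 19.2%, 13.8% and 18.5% lower at the 3 times. The median log2 fold changes over the list were -0.12, -0.08 and -0.08, against -0.03, 0.00 and 0.02 over all genes. In the pentose phosphate branch, which makes NADPH and ribose from the product of hexokinase, 5, 5 and 6 of 7 genes were lower at 3, 24 and 72 h and none was higher by edgeR, against the same shares of all genes. These are sums over all kept cells, of which Myeloid-like cells were 29.2% in control and 15.4 to 19.7% after IFNα, and the part of this in the counts was not tested. Pgd, phosphogluconate dehydrogenase, went from 82.9 ± 7.07 to 53.0 ± 6.29 CPM at 72 h (-0.67 ± 0.08, adjusted p = 1.84e-06). Among 9 genes that control flux 4, 3 and 3 were lower and 0, 1 and 0 higher. Pfkfb4, which sets the level of an activator of phosphofructokinase, had 3.90 CPM in control and gave -0.92 ± 0.23 at 3 h (adjusted p = 0.00239). Tigar, which lowers that activator, had 6.95 CPM in control and gave -0.65 ± 0.13 at 24 h (adjusted p = 7.33e-04). Among 11 genes of pyruvate entry into mitochondria 2, 0 and 1 were higher and 3, 4 and 4 lower.

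On the side of HIF and MYC 8, 3 and 4 of 16 genes were higher and 4, 3 and 1 lower at 3, 24 and 72 h. The higher ones were 50%, 18.8% and 25% of the group, beside 19.7%, 14.5% and 18.9% of all genes. Hif1a, the oxygen-regulated subunit of hypoxia-inducible factor 1, rose from 25.0 ± 2.03 to 38.4 ± 2.70 CPM at 3 h (0.65 ± 0.07, adjusted p = 1.10e-07). The others higher at 3 h were Egln2 (0.21 ± 0.06), Bnip3 (0.22 ± 0.08), P4ha1 (0.36 ± 0.10), Mif (0.30 ± 0.06), Myc (0.45 ± 0.06), Max (0.46 ± 0.05) and Mycn. The 4 lower at 3 h were Egln1 (-0.80 ± 0.08, adjusted p = 8.37e-08), Vhl (-0.46 ± 0.18, adjusted p = 0.0468), Vegfa (-0.43 ± 0.17, adjusted p = 0.0461) and Egln3 (-0.31 ± 0.10, adjusted p = 0.0161). Mycn, a MYC family factor, gave 0.97 ± 0.15, 0.55 ± 0.14 and 0.92 ± 0.14 at the 3 times (adjusted p = 1.99e-05, 0.0043 and 2.49e-05). At 24 h the hypoxia-inducible genes Ndrg1 and Vegfa went in opposite directions, with 0.48 ± 0.08 and -0.74 ± 0.14 (adjusted p = 1.71e-04 and 3.51e-04). Of the 6 transport genes 1, 1 and 1 were higher and 2, 1 and 0 lower. Slc2a6, at only 1.93 ± 0.77 CPM in control and 4.13 ± 1.87 CPM at 3 h, rose by 0.87 ± 0.29 (adjusted p = 0.0191). The glucose transporter Slc2a3 rose at 24 h (0.46 ± 0.10, adjusted p = 0.00145) and 72 h (0.78 ± 0.10, adjusted p = 4.60e-06). The lactate transporter genes Slc16a3 (-0.78 ± 0.16, adjusted p = 4.07e-04) and Slc16a1 (-0.27 ± 0.08, adjusted p = 0.00642) were lower at 3 h, and Slc16a1 also at 24 h (-0.18 ± 0.06, adjusted p = 0.0404). Of 12 paralogs and other enzymes 2, 1 and 3 were higher and 5, 3 and 4 lower. Pklr, the pyruvate kinase of liver and red cells, had 5.53 CPM in control and gave -0.99 ± 0.30 at 3 h and -0.83 ± 0.22 at 24 h. Aldoc, at 2.94 CPM in control, gave 0.93 ± 0.18 at 24 h and 0.84 ± 0.20 at 72 h. Ldhc, at 1.82 CPM in control, gave -1.21 ± 0.43 at 3 h and -1.43 ± 0.37 at 72 h. All these values of Pklr, Aldoc and Ldhc passed the test.

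The genes with the pattern most like that of Hk2, Pgk1 and Ldha were sought among 5391 genes over the 20 means of 5 classes at 4 times. For Hk2 they were Dnajb6 (Pearson r = 0.934), Tor3a (0.926) and Capza2 (0.924). For Pgk1 they were Hmga1 (0.919), Anapc13 (0.904) and Tomm7 (0.897), and for Ldha Uchl3 (0.948), Snrpb (0.938) and Mrps25 (0.933). The 20 means share libraries and mice, so these values describe likeness of pattern only.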

How the data were processed

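Gene-by-cell matrices of UMI counts, 1 for each of 4 libraries, were used as deposited by the authors, who made them from 10x 3′ reads with Cell Ranger 3.1.0 on mm10 and assigned cells to mice from hashtag reads with Seurat. The annotation release behind the counts is not given in the sources used here. Cells called multiplets (67 to 169 per library) or negative for hashtags (166 to 422) were left out, as were cells with over 5% mitochondrial UMIs or under 700 genes. Doublets of cells of 1 mouse remain. Clusters of control cells (Scanpy 1.11.5, Leiden resolution 0.8, 500 genes without the members and the pathway list) were named from markers and passed to treated cells by mutual nearest neighbors (94.8% of treated cells had the same class without this correction). A cluster of 247 control cells scored highest for LMPP markers but had the HSC marker Hlf among its leading genes. It shared Myl10, Hlf, Gimap1 and Gm19590 with the leading genes of the HSC-like cluster and Dntt with those of the LMPP-like cluster. This cluster was left unnamed after its leading genes were seen, so its cells are in neither class. UMIs were summed per mouse and class and tested with edgeR 4.0.16 (R 4.3.3, filterByExpr, TMM, quasi-likelihood test over all groups). The study's own edgeR test was the likelihood ratio test. SE is the log2 fold change divided by the root of F. Differences between classes were tested with limma 3.58.1 on log2 CPM with a prior count of 2. Alternatives were DESeq2 1.42.0, other scalings and filters, equal weights, the hashtag block and each mouse left out. Equal weights were tested with limma on log2 CPM without TMM scaling. Those of the 5 classes also left out control mouse 4 and cells outside these classes. The tests were checked on simulated data. The members and the lists were chosen with earlier results of these data known. Named pathway genes are the 3 with the largest rise and fall among those past the test with all 4 mice on 1 side of the control mean, with Gapdh and Eno1 for the missing steps. Hk3 at 3 and 24 h, Slc2a3 at 24 h, Slc16a1 and Slc16a3 were named after their values were seen. The same holds at 3 h for Egln1, Vhl, Vegfa, Egln3, Egln2, Bnip3, P4ha1, Mif, Myc and Max.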

Additional observations from a re-analysis of the deposited data

Results flagged for a closer look

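Among 200 groups of 4 mice (a member in all kept cells or in a class at 1 time), 13 held a mouse whose distance to the nearest of the others was beyond Dixon's 95% critical value, where chance gives about 1 in 20 groups. No explanation was tested.

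Control mouse 4, the mouse with 58 kept cells, accounts for 3 of them. Its Hk2 level was 9.57 CPM (the others 24.7 to 25.2 CPM) in all kept cells, from 11 UMIs, and 15.1 CPM (the others 30.99 to 34.2 CPM) in Myeloid-like cells, from 7 UMIs. Its Pfkl level in Myeloid-like cells was 30.1 CPM (the others 50.0 to 53.3 CPM), from 14 UMIs.

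In HSC-like cells mouse 4 at 72 h had an Hk2 level of 29.7 CPM (the others 23.7 to 24.5 CPM). Mouse 2 at 24 h had a Pfkl level of 53.9 CPM (the others 70.8 to 72.8 CPM) and a Pgam1 level of 182 CPM (the others 198 to 201 CPM) in these cells. In LMPP-like cells mouse 2 at 72 h had a Pfkl level of 50.0 CPM (the others 69.6 to 73.6 CPM) and an Ldha level of 526 CPM (the others 659.5 to 682 CPM). In Myeloid-like cells mouse 2 at 72 h had a Pgk1 level of 44.7 CPM (the others 47.6 to 48.1 CPM) and mouse 4 at 72 h a Pgam1 level of 828 CPM (the others 786 to 788 CPM). In Erythroid-like cells mouse 4 at 3 h had an Hk1 level of 177 CPM (the others 116 to 121 CPM) and a Gpi1 level of 304 CPM (the others 222 to 233 CPM). In MK-like cells mouse 1 at 72 h had an Hk1 level of 67.4 CPM (the others 85.9 to 89.6 CPM).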

How the results depend on the processing

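Most values kept their side of the limit. A value was counted as turned where its sign changed and either fit passed. A sign that changed with neither fit passing was counted as kept, as for Gpi1 at 24 h (-0.08, and 0.03 with the 5 classes in equal weights). Over all settings other than a left-out mouse, 413 values of members in all kept cells were kept, 14 passed only there, 18 no longer passed and 5 turned. In classes these numbers were 1085, 38, 15 and 2. Those that turned at 3 h in all kept cells were Pfkl (-0.22 with the 5 classes in equal weights) and Ldha (-0.12 with library totals alone, -0.16 with classes and -0.14 with cells in equal weights). These settings, all without TMM scaling, moved the median of all genes at 3 h from -0.03 to -0.18, -0.20 and -0.16. All 4 values lay within 0.06 of the median of their setting. Pfkl between 3 and 24 h was 0.21 with classes in equal weights (median of all genes 0.14), and Ldha in Myeloid-like cells at 3 h was -0.00096 with library totals alone and -0.15 with the clusters in equal weights (median of all genes in these cells -0.17 with either). The cause was not tested.

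Counts that moved over 1.5 times were these. With classes in equal weights 1 member was higher and 1 lower at 24 h (3 and 3 otherwise) and 2 were higher at 72 h (4 otherwise), and with cells in equal weights 1 was higher at 24 h and 2 at 72 h. Calls over all genes fell as well: 14.5% higher and 13.8% lower at 24 h became 3.98% and 4.77% with classes and 5.69% and 6.26% with cells in equal weights, and 18.9% higher at 72 h became 4.31% and 9.05%. Pairs of member and class that were lower numbered 9, 0 and 3 at 3, 24 and 72 h. With library totals alone they were 24, 1 and 5, and with the clusters of a class in equal weights 14 at 3 h and 6 at 72 h. At 3 h the median of all genes in the classes was -0.26 to -0.17 with library totals alone, and -0.17 in Myeloid-like and -0.25 in Erythroid-like cells with clusters in equal weights. The labels do not pair mice by hashtag number, and deviations from the group means correlated at -0.058 to 0.095 over 24 pairs of mice, and 7 of 16 mice correlated best with their own number. The fit with the hashtag number as a replicate block gave 5 lower pairs at 72 h. The shares of all genes lower at 72 h are not given for these settings, so these counts show nothing particular to the members.

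With 1 mouse left out, 3 to 4, 1 to 3 and 4 to 4 members were higher at 3, 24 and 72 h and 5 to 5, 3 to 4 and 5 to 5 lower. Pairs were 13 to 16, 5 to 7 and 5 to 9 higher and 5 to 9, 0 to 0 and 2 to 3 lower. The shares of all genes are not given for these fits. Responses that differed between HSC-like cells and another class were 0 to 0 at 3 and 24 h and 0 to 1 at 72 h. In simulated counts edgeR recovered 15.2 to 41.8% of 1.5-fold and 65.7 to 84.8% of 2-fold changes at 3 h in a class, and 70.1% and 83.3% in all kept cells; classes have fewer UMIs and, except Myeloid-like, 3 control mice, and depth alone was not varied. An alternative chosen after seeing the data, the largest unnamed cluster counted as LMPP-like, added Gpi1 (-0.19) and Aldoa (-0.20) at 3 h and Pfkl (0.33) at 72 h to the calls in LMPP-like cells.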

Other observations

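Within classes, the share of Hk2 in the UMIs of Hk1, Hk2 and Hk3 was computed for each mouse and is given without a test. In HSC-like cells its mean was 27.4% in control and 40.1%, 19.8% and 22.8% at 3, 24 and 72 h. In Myeloid-like cells it was 15.3%, 45.02%, 23.8% and 27.0%. Hk3 held 65.7% of the Myeloid-like hexokinase UMIs in control and 38.8% at 3 h. In Erythroid-like cells Hk1 held 93.6% in control and 79.0% at 3 h.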
